A study of Oreochromis niloticus with 6 samples.

Results

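The nuclear-encoded subunits of oxidative phosphorylation were examined complex by complex in the liver of GIFT, a strain of Nile tilapia (Oreochromis niloticus) bred for fast growth. Members were the loci that carry the KEGG pathway number of oxidative phosphorylation, together with the loci whose gene name begins as NDUFA, NDUFB, NDUFS, NDUFV, UQCR, COX4 to COX8 or ATP5 genes do. Of 31872 loci in the table, 129 met this rule, 64 of them by name and pathway, 49 by pathway only and 16 by name only. A mean of at least 1 FPKM (fragments per kilobase of transcript, scaled to the mapped fragments of a library) over the 6 libraries was reached by 112 members, and by 16423 loci in all, and these loci were tested. By symbol, the tested members were 33 loci of complex I, 4 of complex II, 8 of complex III, 16 of complex IV, 17 of complex V, 16 of the V-ATPase, 9 assembly factors and 9 other loci.

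Liver RNA was sequenced after 96 h from 3 libraries of the hypoxia group (HG), whose tanks were bubbled with nitrogen, and 3 libraries of the control group (CG), whose tanks were held at a dissolved oxygen (DO) of 5 mg/L. The labels give the DO of the HG as 0.7 to 0.8 mg/L, whereas the study's methods name a lower level for the same tanks. The labels name no genetic change and no other agent for either group and do not give the age of the fish. Neither source states whether a library is 1 fish or a pool, so the p-values measure the spread between these libraries only.

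Oxidative phosphorylation is the route by which mitochondria turn the energy of nutrients into ATP. Complexes I and II pass electrons from NADH and succinate to ubiquinone, complex III passes them on to cytochrome c, and complex IV (cytochrome c oxidase) hands them to oxygen. Complexes I, III and IV pump protons across the inner membrane, and complex V (ATP synthase) lets them flow back to make ATP. The V-ATPase is a relative of ATP synthase that works the other way, spending ATP to acidify lysosomes and other compartments. KEGG places it in the same pathway, although it is not part of the respiratory chain. The table held no locus under the symbols of the subunits that the mitochondrial genome encodes, so the members describe the nuclear share of each complex.

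Library totals lay between 459912 and 493870 FPKM, and the lowest nonzero values placed the relative depth of pairs of libraries between 0.713 and 1.33. Correlations over the tested loci were 0.868 to 0.918 within groups and 0.661 to 0.785 between groups. Of the marker lists for liver cell types, 8 of 24 hepatocyte loci were higher in HG and 2 lower, and none of 11 exocrine pancreas loci were higher and 8 lower. The 2 lower hepatocyte loci, apoea (MSTRG.9780) and fetub (1 of many) (MSTRG.16419), averaged under 1 FPKM in HG. Among the 8 higher, fetub (1 of many) (MSTRG.16413) averaged under 1 FPKM in CG. These loci met the minimum only through the group where they are high, so that they had to differ. The summed level of the pancreas list was 307 to 1653 FPKM in HG and 3026 to 6301 FPKM in CG. Of the bile duct list, 0 of 6 tested loci were higher and 3 lower. The endothelium and stellate list had 0 of 11 higher and 3 lower, of which stab1 (MSTRG.10270) met the minimum only through CG. In the erythrocyte list, 2 of 8 were higher and 1 lower, and each of these met the minimum only through the group where it is high. Over all tested loci, 8.27% were called higher and 12.1% lower. The genes egln3 (MSTRG.13905) and ddit4 (MSTRG.14744), which are known to be induced by hypoxia-inducible factor, were picked after their values were known and fell in HG: egln3 averaged 2.09 ± 0.446 FPKM in libraries labelled HG and 275 ± 87.3 FPKM in libraries labelled CG, and ddit4 0.284 ± 0.257 FPKM in HG and 586 ± 91.9 FPKM in CG (SD, n = 3 each). Below, HG and CG stand for the libraries so labelled, and every direction rests on those labels.

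Most subunits did not pass the test, and the complexes differed in the sign of their medians. Among the 112 tested members, 6 rose and 14 fell in HG at an adjusted p under 0.05 (limma on log2(FPKM + 1), Benjamini-Hochberg adjustment over all 16423 loci), and 92 did not pass. Of the 6 that rose, ndufaf7 and lhpp averaged under 1 FPKM in CG and met the minimum only through HG, so that they had to differ, and 4 rose beside them. Counting only the 94 members placed in complexes I to V or the V-ATPase, 4 rose, 11 fell and 79 did not pass. The same call was made for 20.4% of all tested loci, upward for 8.27% and downward for 12.1%. Where the log2 fold change also had to reach 1 in either direction, 4 members rose and 11 fell, against 7.03% and 9.54% of all loci. The median log2 fold change of the members was -0.11, and that of all tested loci was -0.14. Among loci averaging 10 to 100 FPKM, where 66 members lie, 16.1% of all loci rose and 19.4% fell, while 3 and 4 of the members did. Among loci of 1 to 10 FPKM, 6.23% of all loci rose and 10.4% fell, with 2 and 7 of 35 members, and above 100 FPKM 17.5% and 17.3%, with 1 and 3 of 11 members. A fall in bulk tissue can come from fewer cells of a type or from less RNA per cell, and these cannot be told apart.

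The counts depend on single libraries. Of the 20 calls, 15 were lost without HG replicate 1, 10 without HG replicate 3, 7 each without CG replicate 1 or 3, and 6 each without HG replicate 2 or CG replicate 2. Without HG replicate 1, 1 member rose and 4 fell, and without HG replicate 3, 1 rose and 9 fell. Without CG replicate 3, 2 rose and 11 fell, and without CG replicate 1, 3 rose and 10 fell. Without HG replicate 2 or CG replicate 2, 4 rose and 10 fell. Calls over all 16423 tested loci dropped in each of these fits as well. All 6 libraries gave 1359 upward and 1990 downward calls over all loci, against 784 and 804 without HG replicate 1. The other fits that left out a library gave 822 to 970 upward and 1110 to 1434 downward calls over all loci. Scaling the libraries by the median of ratios moved the median of all loci from -0.14 to 0.01 and the share of upward calls among all calls from 40.6% to 53.3%, and the members then gave 12 upward and 12 downward calls and a median of 0.10. A Ballgown-style linear model called no member and no locus at an adjusted p under 0.05 in either direction. It had 19 members at an unadjusted p under 0.05, against 41 in limma. This model imitates the study's tool, and the study's own procedure and thresholds were not rerun. In limma, 36.6% of all tested loci had an unadjusted p under 0.05.

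**Figure D1:**
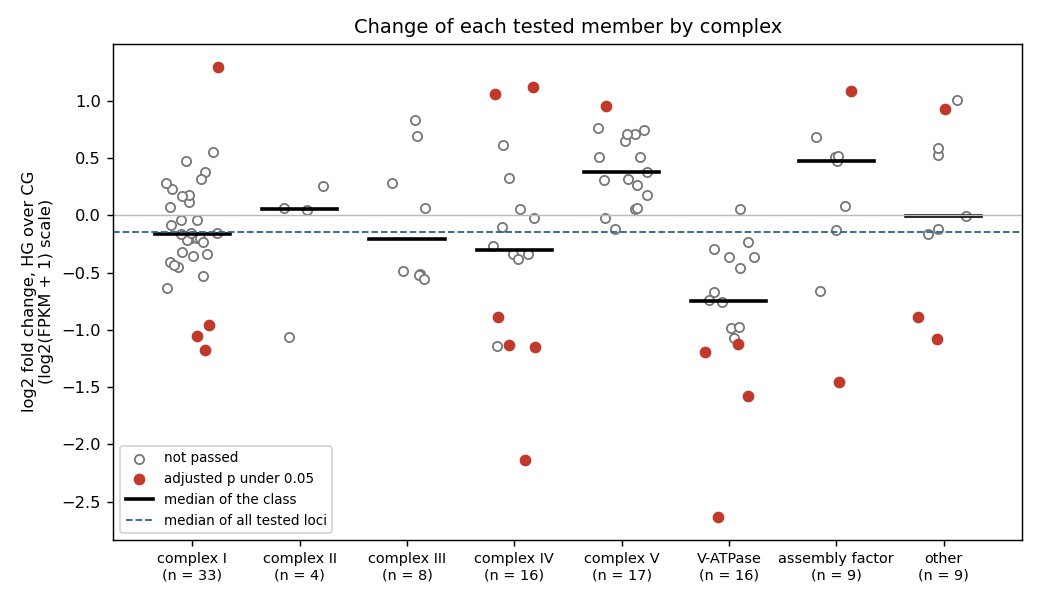
Log2 fold change (HG over CG, on the log2(FPKM + 1) scale) of each of the 112 tested members, by complex; filled points passed an adjusted p of 0.05, bars are class medians and the dashed line is the median of all tested loci. Complex V loci lie mostly above 0 (median 0.38), V-ATPase loci mostly below (median -0.74), and complex IV spreads from -2.13 to 1.12.

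In complex I, the large entry point for electrons from NADH, most subunits did not pass the test: 1 of 33 tested loci rose and 3 fell, with a median log2 fold change of -0.17. Of all tested loci, 8.27% rose and 12.1% fell, and of those averaging 10 to 100 FPKM 16.1% and 19.4%. Without overlap between groups, 3 of the 33 were higher in HG and 9 lower, against 16.5% and 27% of all tested loci. The core subunits, which carry the flavin, the iron-sulfur clusters and the quinone site, had a median of 0.12 over 8 loci. The accessory subunits, which surround the core, had a median of -0.20 over 25 loci. Summed over the 33 loci, complex I stood at 983, 859 and 1111 FPKM in HG, against 1057, 1123 and 1009 FPKM in CG. The groups overlapped, and the ratio of means was 0.926, which turned to 1.07 under median-of-ratios scaling, as the median of the 33 loci turned to 0.0481.

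The single subunit that rose was ndufb9 (MSTRG.23105), an accessory subunit of the membrane arm. It had 41.1, 41.3 and 57.8 FPKM in HG, against 15.2, 20.5 and 19.2 FPKM in CG. All HG libraries lay above all CG libraries (log2 fold change 1.30, standard error 0.24, adjusted p = 0.0131, limma). This call held under each of 16 alternatives other than the Ballgown-style model (adjusted p = 0.279 there).

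The 3 loci that fell were a mixed set. The locus joining ik, a splicing factor, with ndufa2, a small accessory subunit of the matrix arm, had 19.0, 15.4 and 22.4 FPKM in HG, against 45.5, 40.4 and 35.03 FPKM in CG (log2 fold change -1.06, standard error 0.23, adjusted p = 0.0220, limma), and the reads of the neighbours cannot be told apart in it. Of the 2 loci named ndufa3, another accessory subunit, the minor one (MSTRG.13665) had 1.27, 0.812 and 1.63 FPKM in HG, against 4.88, 3.73 and 3.52 FPKM in CG (log2 fold change -1.18, standard error 0.22, adjusted p = 0.0141, limma). The major ndufa3 locus (MSTRG.13664) had 14.6, 9.02 and 14.6 FPKM in HG, against 14.7, 20.5 and 16.72 FPKM in CG, and did not pass (log2 fold change -0.43, adjusted p = 0.274, limma). In both, every HG library was below every CG library, but the bulk of ndufa3 signal lay in the locus that did not pass.

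A similar split marked NDUFS1, the largest core subunit, which holds iron-sulfur clusters. Its minor copy, NDUFS1 (1 of many) (MSTRG.9843), had 1.72, 1.88 and 1.56 FPKM in HG, against 4.13, 5.00 and 3.76 FPKM in CG (log2 fold change -0.96, standard error 0.18, adjusted p = 0.0145, limma). The main copy, ndufs1 (MSTRG.19244), had 42.0, 43.8 and 54.6 FPKM in HG, against 40.2, 44.9 and 38.7 FPKM in CG, and the groups overlapped (log2 fold change 0.17, adjusted p = 0.591, limma). The minor copy was 0.0375 ± 0.00784 of the main one in HG and 0.104 ± 0.00715 in CG (SD, n = 3 each). Reads of near-identical copies can be shared out unevenly when a table is made, so the levels of copies marked "1 of many" are uncertain.

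Other core subunits of the matrix arm pointed both ways, with ndufs7 (MSTRG.11754) at -0.53 and ndufs8a (MSTRG.15558) at 0.47 on the log2 scale, and neither passed. The 2 most abundant complex I members were the accessory subunits ndufb5 (MSTRG.2296), with 73.3, 67.4 and 80.5 FPKM in HG, against 86.6, 81.8 and 85.8 FPKM in CG, and NDUFA13 (MSTRG.710), with 70.9, 54.7 and 83.9 FPKM in HG, against 95.1, 101 and 79.8 FPKM in CG. Neither passed (log2 fold changes -0.20 and -0.41).

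Complex II, succinate dehydrogenase, which also works in the citrate cycle, had no locus past the threshold among 4 (1 at an unadjusted p under 0.05, limma). Such an unadjusted p was reached by 36.6% of all tested loci. Its flavoprotein sdha (MSTRG.6202) had 15.1, 11.5 and 13.3 FPKM in HG, against 13.5, 13.2 and 11.5 FPKM in CG, and the membrane anchor sdhda (MSTRG.21518) had 4.93, 4.28 and 6.99 FPKM in HG, against 4.57, 6.98 and 4.10 FPKM in CG. Both overlapped between groups. The iron-sulfur subunit was found as 2 loci with opposite signs. The copy named SDHB (1 of many) (MSTRG.3900) had 13.1, 13.0 and 15.5 FPKM in HG, against 10.7, 11.8 and 11.7 FPKM in CG. The locus si:dkey-31b16.7 (MSTRG.11824), placed here because it carries the same KEGG orthology entry, had 5.22, 4.11 and 4.26 FPKM in HG, against 20.6, 6.32 and 8.71 FPKM in CG. Neither passed (log2 fold changes 0.26 and -1.06, adjusted p = 0.367 and 0.105, limma), although the groups did not overlap at either.

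Complex III, which moves electrons from ubiquinol to cytochrome c, had no call among 8 loci (4 at an unadjusted p under 0.05, limma), and 1 under median-of-ratios scaling. Of the 8, 2 were higher and 3 lower in HG without overlap between groups, and the median log2 fold change was -0.21 (0.0654 over loci averaging 10 FPKM or more). By comparison, 16.5% of all tested loci were without overlap and higher in HG, and 27% without overlap and lower. An unadjusted p under 0.05 (limma) was reached by 36.6% of all tested loci. The largest positive value belonged to uqcrc1 (MSTRG.5229), a core protein of the matrix side, with 41.0, 29.6 and 43.3 FPKM in HG, against 15.5, 28.7 and 19.5 FPKM in CG (log2 fold change 0.83, adjusted p = 0.0870, limma). Its partner core protein was present as a pair of copies, of which uqcrc2a (MSTRG.19813) had 13.7, 13.1 and 15.1 FPKM in HG, against 7.33, 10.5 and 7.28 FPKM in CG, and uqcrc2b (MSTRG.1304) had 22.0, 19.0 and 30.9 FPKM in HG, against 33.3, 36.6 and 35.4 FPKM in CG. The ratio of uqcrc2a to uqcrc2b was 0.601 ± 0.104 in HG and 0.238 ± 0.0438 in CG (SD, n = 3 each), without overlap, while neither copy alone passed (adjusted p = 0.0650 and 0.143, limma).

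The other complex III loci differed less. The Rieske iron-sulfur protein had 2 loci, UQCRFS1 (1 of many) (MSTRG.26681) and uqcrfs1 (MSTRG.9671), at -0.51 and -0.49 on the log2 scale, both without overlap and both short of the threshold (adjusted p = 0.128 and 0.108, limma). The most abundant member, uqcrb (MSTRG.6619), a small subunit near the quinone site, had 90.2, 78.7 and 97.4 FPKM in HG, against 91.1, 81.8 and 80.8 FPKM in CG. The hinge-like protein UQCRHL (MSTRG.799) had 78.8, 70.5 and 51.0 FPKM in HG, against 113, 105 and 72.0 FPKM in CG, and overlapped. Summed, complex III stood at 298, 256 and 302 FPKM in HG, against 335, 333 and 278 FPKM in CG.

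**Figure D2:**
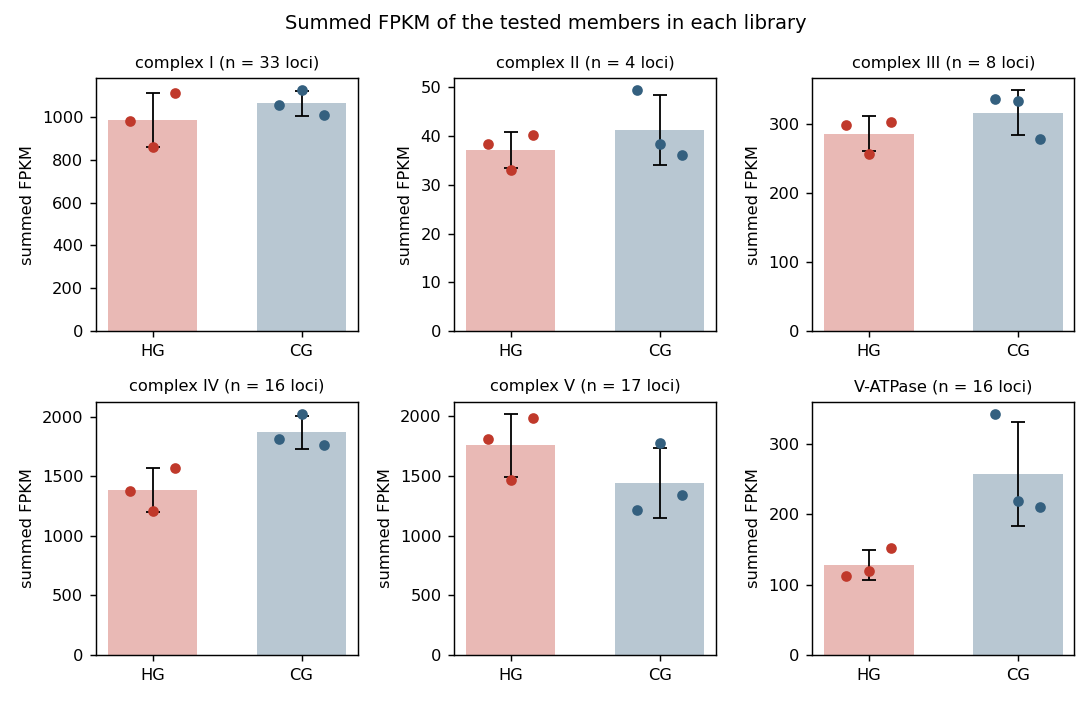
Summed FPKM of the tested members of each complex in every library (points), with the group mean (bar) and SD (error bar, n = 3), HG left of CG. The V-ATPase sums are 112 to 152 FPKM in HG and 210 to 342 FPKM in CG, complex IV is without overlap on this scale only (it overlaps under median-of-ratios and upper-quartile scaling), and the other complexes overlap.

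In complex IV, which spends the oxygen, 2 of 16 loci rose and 4 fell, with a median log2 fold change of -0.30. Most of its loci lie above 10 FPKM, where the shares of all loci called, given above, are of like size. Its summed level was 1376, 1205 and 1573 FPKM in HG, against 1815, 2020.4 and 1766 FPKM in CG, a ratio of means of 0.742 without overlap. Under median-of-ratios scaling the groups overlapped, at 1590.3, 1265 and 1560.2 FPKM in HG, against 1545, 1899.5 and 1690.4 FPKM in CG, and they overlapped under upper-quartile scaling as well. Without HG replicate 1, none of the 16 rose and 1 fell, and without HG replicate 3 none rose and 2 fell. Of the sums, which averaged 1385 FPKM in HG and 1867 FPKM in CG, cox6b1 alone made up 112 FPKM in HG and 495 FPKM in CG.

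That subunit, cox6b1 (MSTRG.1337), faces the space between the membranes, where it helps hold the dimer of the enzyme. It had 99.1, 123 and 115 FPKM in HG, against 459, 486 and 541 FPKM in CG. It fell by 2.13 on the log2 scale (standard error 0.20, adjusted p = 0.00164, limma), and every HG library lay far below every CG library. This call held in each alternative except the Ballgown-style model (adjusted p = 0.129 there). Of the 2 loci named cox6b2, which in mammals is the testis form of the same subunit, the larger (MSTRG.13265) had 29.0, 23.3 and 31.01 FPKM in HG, against 17.6, 17.8 and 17.7 FPKM in CG, and did not pass (log2 fold change 0.61, adjusted p = 0.0765, limma). The ratio of cox6b2 to cox6b1 was 0.250 ± 0.0537 in HG and 0.0359 ± 0.00294 in CG (SD, n = 3 each).

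Both loci that rose are second isoforms of their subunit. The regulatory subunit COX4 binds ATP, and in mammals its second isoform is prominent in lung and responds to low oxygen. The second isoform, cox4i2 (MSTRG.20665), had 109, 122 and 143 FPKM in HG, against 38.3, 69.3 and 67.3 FPKM in CG (log2 fold change 1.12, standard error 0.29, adjusted p = 0.0382, limma). The first isoform, cox4i1 (MSTRG.4748), had 110, 77.3 and 108 FPKM in HG, against 129, 151 and 81.7 FPKM in CG, and overlapped (log2 fold change -0.27, adjusted p = 0.557, limma). The ratio of cox4i2 to cox4i1 was 0.993, 1.58 and 1.32 in HG, against 0.296, 0.459 and 0.824 in CG, so that every HG library stood above every CG library. The call of cox4i2 was lost when any single library was left out.

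The other isoform, cox6a2 (MSTRG.5107), is in mammals the heart and skeletal muscle form of COX6A. It had 348, 315 and 411 FPKM in HG, against 151, 186 and 175 FPKM in CG (log2 fold change 1.06, standard error 0.21, adjusted p = 0.0159, limma), the highest HG mean of the 112 members. The liver-type partner, cox6a1 (MSTRG.8112), had 81.8, 73.1 and 148 FPKM in HG, against 139, 166 and 77.4 FPKM in CG, and overlapped (log2 fold change -0.33, adjusted p = 0.574, limma). The ratio of cox6a2 to cox6a1 was 4.25, 4.31 and 2.79 in HG, against 1.09, 1.12 and 2.26 in CG. The muscle markers acta1a, myl1, ckmb and tnnt3a were at or below 0.0873 FPKM in all 6 libraries, and ckma at or below 0.718 FPKM. Of the muscle list 3 of 13 loci were tested: cox6a2 itself, Mb and tnnt2a. The marker tnnt2a (MSTRG.10896) had 0.246, 0.204 and 0.114 FPKM in HG, against 1.49, 1.81 and 3.78 FPKM in CG (log2 fold change -1.44, adjusted p = 0.0245, limma). It averaged under 1 FPKM in HG and met the minimum only through CG, so that it had to differ. The list's summed level was 356 to 476 FPKM in HG and 2049 to 3023 FPKM in CG, and Mb (MSTRG.10471) and cox6a2 made up nearly all of it, Mb with 40.0 to 73.9 FPKM in HG and 1869.5 to 2834 FPKM in CG.

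**Figure D3:**
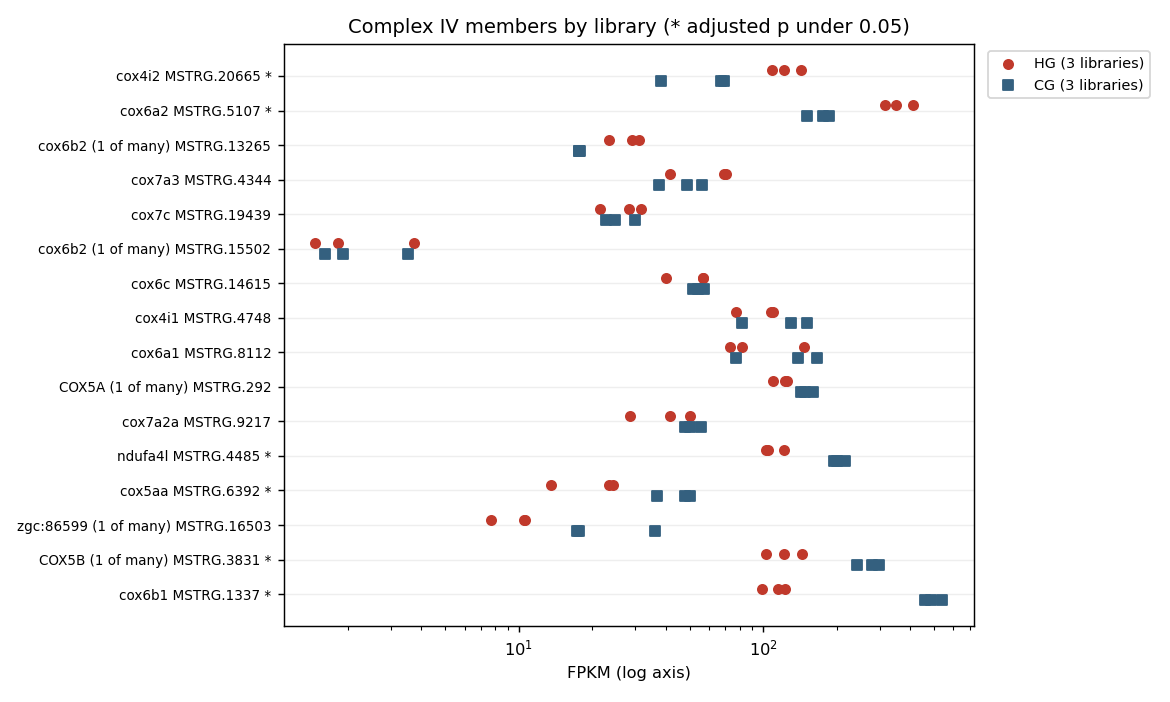
FPKM (log axis) of the 16 tested complex IV loci in each library, HG (circles) above CG (squares) in each row, ordered by log2 fold change; asterisks mark an adjusted p under 0.05. The isoforms cox4i2 and cox6a2 lie higher in HG at the top, and cox6b1 shows the widest gap at the bottom, 99.1 to 123 FPKM in HG and 459 to 541 FPKM in CG.

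The loci that fell beside cox6b1 were 2 matrix-side subunits and a peripheral one. The zinc-binding subunit COX5B (1 of many) (MSTRG.3831) had 122, 103 and 143 FPKM in HG, against 298, 279 and 241 FPKM in CG (log2 fold change -1.15, standard error 0.22, adjusted p = 0.0144, limma). The locus zgc:86599 (1 of many) (MSTRG.16503), with the same KEGG orthology entry, had 7.74, 10.6 and 10.6 FPKM in HG, against 17.3, 36.2 and 17.6 FPKM in CG, just short of the threshold (log2 fold change -1.14, adjusted p = 0.0515, limma). Their ratio overlapped between groups, unlike the ratios of cox4i2, cox6a2 and cox6b2 to their partners.

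Of the 2 COX5A loci, cox5aa (MSTRG.6392) had 23.4, 13.6 and 24.2 FPKM in HG, against 47.8, 50.1 and 36.7 FPKM in CG (log2 fold change -1.13, standard error 0.29, adjusted p = 0.0354, limma). The more abundant COX5A (1 of many) (MSTRG.292) had 125, 109 and 123 FPKM in HG, against 148, 160.1 and 143 FPKM in CG, and did not pass (log2 fold change -0.34, adjusted p = 0.247, limma). The subunit ndufa4l (MSTRG.4485), of a family first listed in complex I and now assigned to complex IV, had 122, 103 and 105 FPKM in HG, against 195, 216 and 200.4 FPKM in CG (log2 fold change -0.89, standard error 0.19, adjusted p = 0.0223, limma). The groups of both called loci were apart, but the calls of cox5aa and ndufa4l were lost when libraries were scaled by the median of ratios or by the upper quartile. That of cox5aa was also lost without any single library, and that of ndufa4l without any but CG replicate 1.

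The 4 small membrane subunits did not pass. The COX7A pair had cox7a3 (MSTRG.4344) at 70.7, 41.4 and 69.4 FPKM in HG, against 48.7, 56.4 and 37.4 FPKM in CG, and cox7a2a (MSTRG.9217) at 41.6, 28.5 and 50.1 FPKM in HG, against 50.2, 55.7 and 47.7 FPKM in CG. Each overlapped, yet the ratio of cox7a3 to cox7a2a was 1.51 ± 0.165 in HG and 0.921 ± 0.122 in CG (SD, n = 3 each), without overlap. The log2 fold changes of cox6c (MSTRG.14615) and cox7c (MSTRG.19439) were -0.10 and 0.06. Ratios of copies do not depend on the scaling of a library. The pairs were partly chosen with their values known, and 3 libraries against 3 allow an exact two-sided permutation p of 0.1 at the least, so no test is given for them.

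Most loci of complex V were at least slightly higher in HG, but the test passed few of them. Of its 17 tested loci, 15 had a log2 fold change above 0, the median was 0.38, 5 were higher in HG without overlap, and 1 passed the test. Of all tested loci, 16.5% were higher in HG without overlap and 8.27% rose. A log2 fold change above 0 was found at 6880 of all 16423 tested loci. All 17 averaged above 10 FPKM, where 16.1% of all loci rose up to 100 FPKM and 17.5% beyond. The summed level of complex V was 1813, 1469 and 1984 FPKM in HG, against 1215, 1772 and 1343 FPKM in CG, with overlap and a ratio of means of 1.22. The call was lost in 5 of the 6 fits that left out a library, HG replicate 2 being the exception, whereas scaling by the median of ratios gave 4 calls.

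The F1 head, where ATP is made, had the highest median of the parts of complex V. Its catalytic beta subunit had 2 loci, of which atp5b (1 of many) (MSTRG.9884) had 20.8, 15.5 and 23.1 FPKM in HG, against 8.07, 9.66 and 11.4 FPKM in CG, the one that rose (log2 fold change 0.95, standard error 0.24, adjusted p = 0.0348, limma). The more abundant copy (MSTRG.3464) had 52.7, 45.0 and 63.9 FPKM in HG, against 26.6, 39.6 and 29.3 FPKM in CG, without overlap but short of the threshold (log2 fold change 0.75, adjusted p = 0.0779, limma). Of the alpha subunit, which alternates with beta in the head, atp5a1 (1 of many) (MSTRG.14234) had 86.1, 79.2 and 77.1 FPKM in HG, against 41.6, 60.1 and 46.9 FPKM in CG (log2 fold change 0.71, adjusted p = 0.0638, limma). The 7 F1 loci all had values above 0, with a median of 0.65, and the gamma, delta and epsilon subunits atp5c1, atp5d and atp5e were at 0.51, 0.31 and 0.17, none of them past the threshold.

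The membrane part of complex V was mixed. The c ring turns as protons pass, and its most abundant locus, atp5g3a (MSTRG.9855), had 302, 267 and 343 FPKM in HG, against 155, 236 and 172 FPKM in CG, without overlap (log2 fold change 0.71, adjusted p = 0.0786, limma). Its paralogs atp5g3b (MSTRG.8159) and atp5g1 (MSTRG.26264) were at 0.38 and 0.32 on the log2 scale and overlapped. The peripheral stalk, which keeps the head from turning with the ring, had a median of 0.16 over 4 loci, with atp5o (MSTRG.18340) at 177, 175 and 197 FPKM in HG, against 212, 201 and 186 FPKM in CG (log2 fold change -0.12). The other membrane subunits ran from -0.03 for si:ch211-194i10.5 (MSTRG.5665), which shares the KEGG orthology entry of ATP5J2, to 0.76 for atp5l (MSTRG.22238). The second most abundant locus, atp5ia (MSTRG.6862), which helps pair ATP synthases along the membrane, had 295, 173 and 247 FPKM in HG, against 177, 301 and 205 FPKM in CG.

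**Figure D4:**
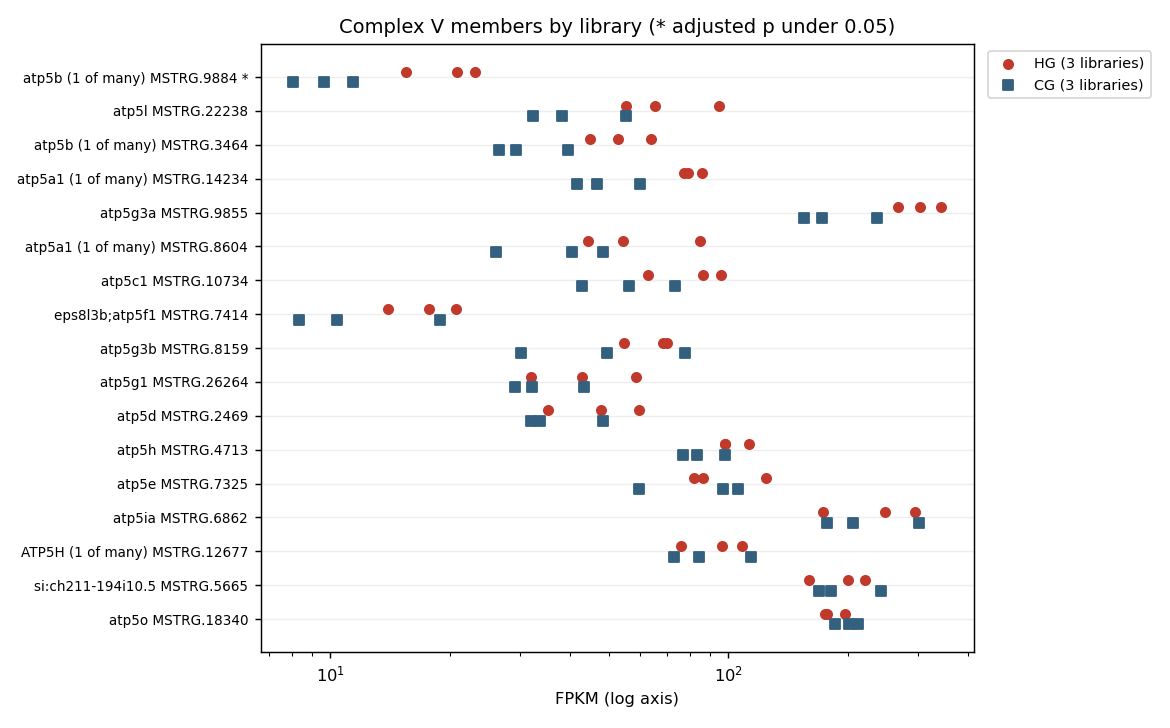
FPKM (log axis) of the 17 tested complex V loci in each library, HG (circles) above CG (squares) in each row, ordered by log2 fold change; the asterisk marks an adjusted p under 0.05. Only atp5b MSTRG.9884 passed. The atp5b and atp5a1 loci of F1, atp5l and atp5g3a fill the upper rows, and the F1 loci atp5d and atp5e lie lower. At the bottom are atp5o and si:ch211-194i10.5 with values below 0.

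The V-ATPase had the lowest median of the classes: 4 of 16 tested loci fell, none rose, 15 had a log2 fold change below 0, 11 were lower in HG without overlap, and the median was -0.74. Of all tested loci, 12.1% fell and 27% were lower in HG without overlap. A log2 fold change below 0 was found at 9543 of all 16423 tested loci. The 16 loci averaged 1.89 to 37.5 FPKM. Of all loci averaging 1 to 10 FPKM 10.4% fell, and of those averaging 10 to 100 FPKM 19.4%. The summed level of the V-ATPase was 112, 120 and 152 FPKM in HG, against 342, 218 and 210 FPKM in CG, a ratio of means of 0.498. CG replicate 1 was the highest library, and without it the median was still below 0 but 2 loci passed in place of 4. Without HG replicate 1, 2 passed as well.

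The V1 part, which sits on the outside of the membrane and splits ATP, showed most of this, with a median of -0.98 over 9 loci and a ratio of summed levels of 0.393. The subunit C1 locus ATP6V1C1 (1 of many) (MSTRG.6595), of the stalk that must join for the pump to work, had 4.32, 7.06 and 5.82 FPKM in HG, against 72.2, 28.6 and 31.3 FPKM in CG (log2 fold change -2.63, standard error 0.39, adjusted p = 0.00631, limma). The catalytic subunit ATP6V1A (1 of many) (MSTRG.9406) had 3.70, 5.09 and 7.86 FPKM in HG, against 19.5, 16.5 and 17.7 FPKM in CG (log2 fold change -1.58, standard error 0.27, adjusted p = 0.0106, limma). Both calls held in every alternative but the Ballgown-style model, where the adjusted p was 0.199 for ATP6V1C1 and 0.287 for ATP6V1A.

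The stalk subunit E1 was present as 2 copies with unlike values. The locus atp6v1e1b (MSTRG.14812) had 4.11, 6.03 and 6.63 FPKM in HG, against 17.1, 11.5 and 13.4 FPKM in CG (log2 fold change -1.20, standard error 0.25, adjusted p = 0.0196, limma). Its copy atp6v1e1a (MSTRG.9646) had 7.62, 5.07 and 6.06 FPKM in HG, against 5.10, 5.53 and 7.25 FPKM in CG, the single V-ATPase value above 0 (log2 fold change 0.06, adjusted p = 0.880, limma). The ratio of atp6v1e1b to atp6v1e1a was 0.941 ± 0.352 in HG and 2.43 ± 0.813 in CG (SD, n = 3 each), without overlap. The second ATP6V1C1 locus (MSTRG.24640) had 3.15, 4.72 and 5.42 FPKM in HG, against 8.29, 8.14 and 7.27 FPKM in CG, and did not pass (log2 fold change -0.74, adjusted p = 0.0603, limma).

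The remaining V1 subunits were all lower in HG without overlap and all short of the threshold. The regulatory subunit atp6v1h (MSTRG.485) came closest, with 6.45, 6.62 and 9.40 FPKM in HG, against 25.5, 13.3 and 13.5 FPKM in CG (log2 fold change -1.07, adjusted p = 0.0510, limma). The central shaft subunits atp6v1d (MSTRG.8796) and atp6v1f (MSTRG.11428) were both at -0.98, and the stalk subunit atp6v1g1 (MSTRG.16517) at -0.75 on the log2 scale.

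The V0 part, the proton channel in the membrane, moved less, with a median of -0.41 over 6 loci. The locus that fell was tcirg1a (MSTRG.7111), the a3 form of the large channel subunit, known in mammals from osteoclasts and macrophages, with 4.68, 5.17 and 7.501 FPKM in HG, against 20.04, 11.3 and 10.8 FPKM in CG (log2 fold change -1.12, standard error 0.30, adjusted p = 0.0420, limma). This call was lost when any single library was left out. The other a forms, atp6v0a1a (MSTRG.4556) and atp6v0a2b (MSTRG.14402), were at -0.24 and -0.37 and did not pass. The most abundant locus, the c ring subunit ATP6V0C (1 of many) (MSTRG.1388), had 31.5, 27.6 and 42.2 FPKM in HG, against 48.3, 41.4 and 34.1 FPKM in CG, and overlapped (log2 fold change -0.29, adjusted p = 0.443, limma). The docking subunit atp6v0d1 (MSTRG.20503) was at -0.67 without overlap and did not pass.

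**Figure D5:**
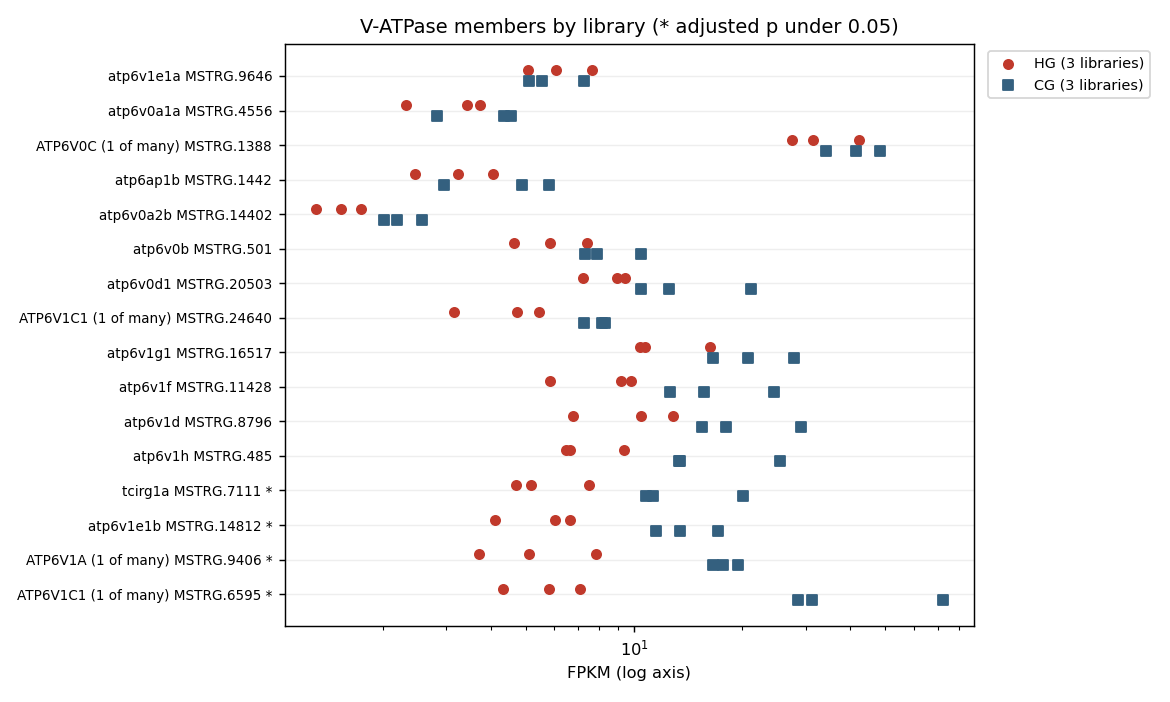
FPKM (log axis) of the 16 tested V-ATPase loci in each library, HG (circles) above CG (squares) in each row, ordered by log2 fold change; asterisks mark an adjusted p under 0.05. The lower rows hold the V1 loci other than atp6v1e1a, with tcirg1a and atp6v0d1, and there the groups are apart. The upper rows hold overlapping loci such as atp6v1e1a and ATP6V0C, and also atp6v0a2b, which does not overlap.

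Further V-ATPase genes lay outside the rule because their rows did not carry the pathway number. Of 6 such tested loci, 2 fell: atp6v1ba (MSTRG.18128), the nucleotide-binding partner of subunit A, with 10.2, 8.56 and 12.0 FPKM in HG, against 34.8, 22.0 and 21.4 FPKM in CG (log2 fold change -1.24, adjusted p = 0.0209, limma), and ATP6V0D2 (MSTRG.850), with 0.257, 0.151 and 0.171 FPKM in HG, against 5.86, 3.09 and 0.914 FPKM in CG (log2 fold change -1.66, adjusted p = 0.0472, limma). ATP6V0D2 met the minimum only through CG and so had to differ. One, atp6v0a1b (MSTRG.16972), pointed up without passing (log2 fold change 0.85, adjusted p = 0.0872, limma). The macrophage and neutrophil list, which itself holds tcirg1a, had 0 of 23 loci higher and 8 lower in HG, while its summed level was 1962 to 3248 FPKM in HG and 2366 to 2879.7 FPKM in CG, so the sum overlapped. Most of the sum came from 2 LYZ loci. Some markers of lower level were apart, such as ncf1 (MSTRG.23281) with 1.44 ± 0.441 FPKM in HG and 42.7 ± 18.2 FPKM in CG and mmp9 (MSTRG.10793) with 0.446 ± 0.242 FPKM in HG and 15.0 ± 12.4 FPKM in CG (SD, n = 3 each). The marker mmp9, which is among the 8 lower, met the minimum only through CG and so had to differ. Others overlapped, such as csf1ra (MSTRG.18385) with 3.66 ± 0.545 FPKM in HG and 3.77 ± 0.524 FPKM in CG. The marker itgb2 (MSTRG.19762) also overlapped, with 5.86 ± 1.75 FPKM in HG and 4.04 ± 0.364 FPKM in CG. Of the 23 loci, 15 did not pass, while 8.27% of all tested loci rose and 12.1% fell. The part of blood and bile duct cells in the V-ATPase values was not tested. In the list of lysosomal membrane proteins and V-ATPase regulators, 2 of 23 loci rose and 1 fell, beside the shares of all loci just given. LAMP2 (MSTRG.7702), a main protein of the lysosomal membrane, had 43.8, 35.3 and 49.6 FPKM in HG, against 11.6, 13.9 and 13.1 FPKM in CG (log2 fold change 1.65, adjusted p = 0.00440, limma), and a second LAMP2 locus (MSTRG.7703) had 0, 0 and 178 FPKM in HG, against 367, 292 and 223 FPKM in CG without passing. The pump regulator dmxl2 (MSTRG.22489) fell (log2 fold change -1.76, adjusted p = 0.00346, limma).

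Among the 9 assembly factors, 1 rose and 1 fell, beside 8.27% and 12.1% of all tested loci. The methyltransferase ndufaf7 (MSTRG.9203), which is needed to build complex I, had 2.07, 1.60 and 2.25 FPKM in HG, against 0.170, 0.793 and 0.301 FPKM in CG (log2 fold change 1.08, standard error 0.28, adjusted p = 0.0365, limma). It met the minimum only through HG, so that it had to differ. The heme A synthase cox15 (MSTRG.3612), which supplies the heme of complex IV, had 3.47, 3.79 and 5.32 FPKM in HG, against 14.8, 13.3 and 11.3 FPKM in CG (log2 fold change -1.46, standard error 0.22, adjusted p = 0.00705, limma). This call held in every alternative that tested the locus but the Ballgown-style model (adjusted p = 0.216 there). With a mean of 8.67 FPKM, cox15 was not tested at the minimum of 10 FPKM. Of the copper carriers of complex IV, cox17 (MSTRG.20167) was lower in HG without overlap and did not pass (log2 fold change -0.66, adjusted p = 0.140, limma), and the locus joined with cox11 (MSTRG.12153) was at 0.08. The ndufaf5 row (MSTRG.20058) carried the orthology entry of another enzyme, and its place in this group rests on its symbol.

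The 9 other tested loci hold the pathway number without a place in a complex, except for atp5s, which matched by name. The phosphatase lhpp (MSTRG.4370), which splits pyrophosphate, had 2.03, 2.66 and 2.51 FPKM in HG, against 0.774, 0.892 and 0.691 FPKM in CG, and was called higher (log2 fold change 0.93, standard error 0.21, adjusted p = 0.0234, limma), having met the minimum only through HG. The pyrophosphatase ppa1b (MSTRG.14750), which clears the pyrophosphate left by biosynthesis, had 48.6, 27.5 and 64.0 FPKM in HG, against 14.1, 27.9 and 24.8 FPKM in CG, and overlapped (log2 fold change 1.007, adjusted p = 0.113, limma). The loci cpsf4 (MSTRG.5664) and taf3 (MSTRG.6436) fell (-0.89 and -1.08 on the log2 scale, limma adjusted p = 0.0154 and 0.0133), but these symbols belong to a factor of mRNA 3' processing and a factor of transcription initiation. They are among 5 tested loci whose row holds the pathway number with another orthology entry or with none.

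The lists of neighbouring mitochondrial genes, read from the same fit, gave 12 upward and 13 downward calls among 119 loci, 21.0% beside the 20.4% of all tested loci. They hold 6 complex I and 2 complex IV assembly loci that are also members above, so these are counted again here. Of 11 loci for complex I assembly, 3 rose and none fell. Among the 3 is ndufaf7, given above, which met the minimum only through HG. Another is acad9 (MSTRG.9046), which also resembles a fatty acid dehydrogenase, with 13.6, 17.99 and 22.5 FPKM in HG, against 4.46, 5.26 and 4.15 FPKM in CG (log2 fold change 1.74, adjusted p = 0.00507, limma). Of 14 for complex IV assembly, 2 fell and none rose. They are cox15, given above, and higd1a (MSTRG.532), a small protein of complex IV that low oxygen induces in mammals, with 11.1, 6.13 and 10.3 FPKM in HG, against 79.0, 65.0 and 90.1 FPKM in CG (log2 fold change -2.98, adjusted p = 0.00164, limma). The sum over the complex IV assembly list was 47.6 to 69.4 FPKM in HG and 136 to 154 FPKM in CG. Of 6 for complex V assembly and control, 1 rose and 1 fell: atpif1a (MSTRG.15243), a copy of the inhibitor that keeps ATP synthase from running backward, had 61.1, 75.2 and 85.6 FPKM in HG, against 38.5, 44.4 and 39.1 FPKM in CG (log2 fold change 0.84, adjusted p = 0.0387, limma), and tmem242 (MSTRG.9246) was at -1.22. The other inhibitor copy, atpif1b (MSTRG.16072), pointed down without overlap, with 23.7, 26.1 and 23.5 FPKM in HG, against 39.2, 33.1 and 32.2 FPKM in CG. It did not pass (log2 fold change -0.49, adjusted p = 0.123, limma). The lists for assembly of complexes II and III had no call among 2 and 4 loci.

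Electron carriers that feed the chain differed gene by gene. Of 15 loci for cytochrome c and quinone entry, 4 rose and 2 fell, beside 8.27% and 12.1% of all tested loci. Both subunits of the electron transfer flavoprotein, which delivers electrons from fatty acid oxidation, rose: ETFA (MSTRG.3129) had 58.0, 67.7 and 55.9 FPKM in HG, against 26.4, 30.7 and 25.7 FPKM in CG (log2 fold change 1.11, adjusted p = 0.0130, limma), and etfb (MSTRG.13232) had 33.6, 29.6 and 34.3 FPKM in HG, against 9.02, 17.6 and 13.5 FPKM in CG (log2 fold change 1.26, adjusted p = 0.0219, limma). Of 2 cytochrome c loci named cycsb (1 of many), MSTRG.9847 fell, with 17.9, 20.5 and 18.7 FPKM in HG, against 277, 161 and 89.1 FPKM in CG (log2 fold change -2.99, adjusted p = 0.00478, limma). The other, MSTRG.1075, had 17.5, 9.30 and 21.7 FPKM in HG, against 17.8, 17.4 and 11.3 FPKM in CG, and overlapped (log2 fold change 0.009, adjusted p = 0.989, limma). The locus dhodh (MSTRG.8135), which passes electrons from pyrimidine synthesis, fell (log2 fold change -1.76, adjusted p = 0.00517, limma).

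The counts of this paragraph stand beside 8.27% of all tested loci that rose and 12.1% that fell. Of 19 citrate cycle loci, 3 rose and 1 fell, led by suclg1 (MSTRG.17157), a subunit of succinyl-CoA ligase, with 68.0, 54.4 and 54.5 FPKM in HG, against 10.1, 23.6 and 16.6 FPKM in CG (log2 fold change 1.82, adjusted p = 0.0115, limma). Genes that follow the amount of mitochondria gave 0 upward and 2 downward calls among 23 loci (vdac3 and TIMM44), with a median of -0.16, and 1 downward call, polrmt, among 9 loci for upkeep and expression of the mitochondrial genome. Of 9 regulators of mitochondrial biogenesis, 2 fell: ppargc1a (MSTRG.13035), the coactivator PGC-1 alpha, had 1.004, 0.378 and 0.991 FPKM in HG, against 3.09, 4.85 and 1.82 FPKM in CG (log2 fold change -1.21, adjusted p = 0.0426, limma), and mycb (MSTRG.25061) was at -4.01 (adjusted p = 0.0106, limma). These 2 loci, and TIMM44 and polrmt, averaged under 1 FPKM in HG and met the minimum only through CG, so that they had to differ. Of 7 loci for carriers of adenine nucleotides and phosphate and uncoupling proteins, 1 rose, SLC25A5 (1 of many) (MSTRG.7749) at 2.04, and 2 fell, SLC25A42 (1 of many) (MSTRG.2481) at -4.22 and ucp1 (MSTRG.14968) at -1.54 on the log2 scale.

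The 17 members under the minimum were 6 loci of the V-ATPase, 3 assembly factors, 1 locus each of complexes I, IV and V and 5 others. Some were copies beside an expressed locus, such as a second ATP6V0C (MSTRG.16899), with 0.375, 0.330 and 0.187 FPKM in HG, against 0.385, 1.03 and 0.200 FPKM in CG. Others had no tested copy among the members, such as ndufaf2 and the ndufaf4 loci. The gastric proton pump genes ATP4A and ATP4B were listed at 0 in 5 of 6 libraries each. A member that passed the minimum only through the group where it is high had to differ: ndufaf7 and lhpp stood under 1 FPKM in all CG libraries and above it in all HG libraries, and zgc:172182 (MSTRG.9885), which did not pass, did so too.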

How the data were processed

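Liver RNA of 3 HG and 3 CG libraries was compared, each library counted as 1 replicate. The authors mapped reads with HISAT and assembled and quantified transcripts with StringTie, and the deposited values are FPKM per locus; versions and the genome build are not given in the sources used here. FPKM correct for length and library total, hold no read counts, and move with any few abundant genes. Loci averaging 1 FPKM or more were tested with limma 3.58.1 (trend, R 4.3.3) on log2(FPKM + 1), a scale that understates changes of low loci, with Benjamini-Hochberg adjustment over 16423 loci. A call is an adjusted p under 0.05. The fit was tested on simulated data. Ballgown, the study's tool, was imitated by a linear model with 3 residual degrees of freedom per locus and kept as an alternative among 17, beside other pseudocounts (0.1, 0.5), minimums (none, 10 FPKM), scalings, variance settings, a replicate block and leaving out each library. Members and lists were chosen with earlier results of these data known. Named members are all called loci of each class, the 2 most abundant of each class and the paralogs of a fixed list, with further members named after their values were seen; of the other lists, up to 2 called loci in each direction are named. Complexes were assigned by symbol or, for 4 loci, by a shared KEGG orthology entry. Summed FPKM and ratios of paralogs are descriptions without a test. No coordinates or sequences are printed, since the build is not stated. The values of 1 member are not reported here.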

Additional observations from a re-analysis of the deposited data

How the results depend on the processing

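Of 20 called members, 5 (cox6b1, ndufb9, cox15, ATP6V1A and ATP6V1C1) passed in those of 16 alternatives, other than the Ballgown-style model, that tested them. Of these 5, cox15 averaged 8.67 FPKM and was not tested at the minimum of 10 FPKM. No called member changed sign in any of the 17 alternatives that tested it. The Ballgown-style model gave 0 calls in every class (19 members at an unadjusted p under 0.05) and a V-ATPase median of -0.33. Median-of-ratios scaling gave 12 upward calls of all members, 2 in complex I, 1 in complex III and 4 in complex V, 2 downward in complex IV, medians of 0.10 (all members), 0.0481 (complex I), 0.24 (complex II) and -0.00540 (complex III), and summed ratios of 1.07, 1.06, 1.06 and 0.860 for complexes I to IV. Upper-quartile scaling gave 1 upward call in complex III and 2 downward in complex IV, medians of 0.0888, 0.0343, 0.23 and -0.0189 in the same order, and summed ratios of 1.06, 1.05, 1.04 and 0.850. Quantile normalization gave 1 upward call in complex III and medians of -0.0412 (complex I) and 0.22 (complex II). With no minimum there were 2 upward calls in all, 1 in complex IV, 0 in complex V and a V-ATPase median of -0.41, and with a minimum of 10 FPKM 1 downward call in complex I, 3 upward in complex V and a complex III median of 0.0654. At the minimum of 10 FPKM, the called loci NDUFS1 (MSTRG.9843, mean 3.01 FPKM) and ndufa3 (MSTRG.13665, mean 2.64 FPKM) of complex I were no longer tested. The same holds for uqcrfs1 (MSTRG.9671, mean 8.80 FPKM) of complex III. With no minimum, the 6 V-ATPase loci under 1 FPKM entered their class. Scaling set the direction of the complex I, II and III sums, and the causes of the remaining shifts were not tested.

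Leaving out 1 library gave 1 to 4 upward and 4 to 11 downward calls of all members, with medians of -0.18 to -0.02. By class the calls were 1 upward and 0 to 3 downward in complex I (medians -0.21 to -0.10), 0 to 1 upward and 1 to 3 downward in complex IV (-0.40 to -0.10), 0 to 1 upward in complex V (0.27 to 0.70) and 2 to 3 downward in the V-ATPase (-0.91 to -0.62). Complexes II and III had 0 calls, with medians of -0.04 to 0.16 and -0.24 to -0.13.

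The replicate numbers are not stated to pair samples, and same-numbered libraries deviated with correlations of 0.04, -0.10 and -0.08. With a replicate block, 1 member rose and 6 fell, with 1 downward call in complex I, 0 upward and 1 downward in complex IV, 0 upward in complex V and 2 downward in the V-ATPase. FPKM without read counts leave the counting error of low loci unknown.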
